A study of Mus musculus with 19 samples.

Results

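The 10 genes described here are clock-driven output genes of the liver: Usp2, Wee1, Rgs16, Nampt, Mfsd2a, Bhlhe40, Bhlhe41, Cdkn1a, Tubb2a and Fkbp5. They are 10 of 22180 genes measured by microarray in 19 samples of whole mouse liver. Each gene was represented by the probe set of highest mean over all 19 arrays, and each of the 10 had 1 probe set. The list was selected on measured values, because it was proposed when differences between these groups were already known. The differences between groups are therefore given as a description, with their standard errors (SE). Where a member is said to pass the threshold, or its call to be lost, this states only on which side of an adjusted p of 0.05 it fell in limma, and it is not independent evidence. The levels are set beside those of Arntl, the transcript of the activator BMAL1, as a reference for the phase of the clock.

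All mice were 2 to 3 months old and spent 4 weeks on their diet. The 6 groups were KO on a high fat diet (HFD), TG on HFD, WT on HFD, KO on a normal diet (ND), TG on ND and WT on ND, with 4 arrays for TG on HFD and 3 for each other group. The series is titled for Kielin/Chordin-like Protein (KCP), and the genotype codes are not spelled out in the labels. Neither the deleted allele, nor the promoter and cell type of the transgene, nor sex, strain, feeding state or hour of harvest is given. Any difference in hour of harvest or in cohort thus cannot be told apart from the groups. Each title has a number of its own that may be an animal number. Nothing else states that the samples are separate animals, so p-values measure the spread between these samples.

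The circadian clock of hepatocytes is a feedback loop in which BMAL1 and CLOCK activate genes through E-boxes, among them the repressors of the Per, Cry and Nr1d families. Arntl itself is repressed by the Nr1d proteins and activated by the ROR proteins, so its transcript peaks at another time of day than many BMAL1 targets. Output genes carry this rhythm into metabolism, the cell cycle and the response to hormones. Several are also driven by feeding, fasting or glucocorticoids, apart from the clock.

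Promoter windows of 300 bases, from 250 bases before to 50 after the start of the gene, came from RefSeq on GRCm38.p6 for 8 of the 10 genes, in 9 windows. The windows of 4 genes are shown because 3 of them hold the matches to E-box motifs, and that of Usp2, a member with a low and a high level that do not overlap, holds none of the motifs searched. Capitals mark an E-box (CACGTG) or an E-prime box (CACGTT), which reads AACGTG on the other strand. Mfsd2a lies at chr4:122961139-122961438 on the minus strand, and Usp2 at chr9:44084670-44084969 on the plus strand. Bhlhe41 lies at chr6:145865371-145865670 and Fkbp5 at chr17:28486100-28486399, both on the minus strand.
Mfsd2a: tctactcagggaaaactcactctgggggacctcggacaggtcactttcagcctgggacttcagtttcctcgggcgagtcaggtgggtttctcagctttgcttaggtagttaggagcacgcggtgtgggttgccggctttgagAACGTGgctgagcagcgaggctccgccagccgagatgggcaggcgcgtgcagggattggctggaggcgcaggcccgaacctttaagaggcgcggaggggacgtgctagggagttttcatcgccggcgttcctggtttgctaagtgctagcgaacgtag
Usp2: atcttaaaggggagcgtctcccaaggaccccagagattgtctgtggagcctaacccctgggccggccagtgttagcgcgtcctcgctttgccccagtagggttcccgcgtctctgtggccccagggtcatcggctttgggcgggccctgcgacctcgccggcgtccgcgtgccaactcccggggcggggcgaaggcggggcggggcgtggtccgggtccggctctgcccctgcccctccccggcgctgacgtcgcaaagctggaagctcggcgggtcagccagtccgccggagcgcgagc
Bhlhe41: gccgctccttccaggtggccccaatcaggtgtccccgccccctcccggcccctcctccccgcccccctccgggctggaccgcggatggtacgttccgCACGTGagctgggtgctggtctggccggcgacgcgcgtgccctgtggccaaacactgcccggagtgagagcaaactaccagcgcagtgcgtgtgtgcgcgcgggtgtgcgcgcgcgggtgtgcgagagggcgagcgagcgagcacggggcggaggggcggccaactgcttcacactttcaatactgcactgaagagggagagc
Fkbp5: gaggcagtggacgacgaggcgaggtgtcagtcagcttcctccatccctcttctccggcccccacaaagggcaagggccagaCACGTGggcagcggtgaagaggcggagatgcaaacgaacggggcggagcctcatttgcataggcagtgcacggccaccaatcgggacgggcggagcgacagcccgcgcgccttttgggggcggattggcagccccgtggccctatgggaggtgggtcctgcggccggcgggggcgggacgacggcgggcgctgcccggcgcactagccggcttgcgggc

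Both strands of every window were searched for 5 motifs. The E-box was found in 2 of the 9 windows, in Bhlhe41 with its first base at position -153 from the start and in Fkbp5 at -169, and in 7.2% of all 32851 RefSeq promoters. An E-prime box was found in 1 window, that of Mfsd2a at -108, and in 4.7% of all promoters. The D-box (TTANNTAA, bound by DBP, TEF, HLF and NFIL3), the core of the ROR element (TNGGTCA) and the core of the glucocorticoid receptor element (ACANNNTGT) were in none of the 9 windows. They were in 6.0%, 11.0% and 6.8% of all promoters. The Arntl windows held 2 and 3 ROR cores. A match is a description of letters and not a binding site, and a window without one says nothing of the factor.

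The transgene could be checked through Kcp, which reached 5.52 to 5.81 in TG on HFD and 1.77 to 2.51 in WT on HFD on the log2 scale, and on ND it reached 5.35 to 5.72 in TG, against 2.41 to 2.82 in WT. Kcp was 1.90 to 2.17 in KO on HFD, within the range of WT, and 1.64 to 2.30 in KO on ND, below every WT array. Neither KO difference from WT passed the threshold. Whether the probes lie in the deleted part is not given. Correlations between arrays of 1 group were 0.968 to 0.979. The 7 hepatocyte markers had medians of -0.12 to 0.08 over 7 comparisons, and none of them passed the threshold in any. In bulk liver, fewer cells of a type and less RNA per cell cannot be told apart.

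Arntl, the phase reference, fell in 2 ranges that did not overlap. It was 2.13, 2.91 and 2.58 in KO on HFD, 3.73, 3.48, 3.61 and 3.34 in TG on HFD, and 2.68, 2.98 and 3.33 in WT on HFD. On ND it was 4.00, 3.71 and 3.26 in KO, 6.43, 5.78 and 5.89 in TG, and 5.09, 6.33 and 5.16 in WT. The 13 arrays of the 3 HFD groups and of KO on ND lay at 2.13 to 4.00, below the 6 arrays of TG and WT on ND at 5.09 to 6.43. The lower range was not 1 level, since KO on ND lay above KO on HFD, and TG on HFD above WT on HFD, without overlap.

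Of the 10 genes, 6 had the opposite order across these 2 ranges, being low in TG and WT on ND where Arntl was high. They were Usp2, Wee1, Rgs16, Nampt, Mfsd2a and Bhlhe40. Each of the 6 was called higher on HFD than on ND in both TG and WT, and the other 4 were not. Fkbp5 also had its lowest means in TG and WT on ND, at 3.57 and 3.34. Its arrays of TG on ND overlapped those of WT on HFD, which averaged 3.74. Clock-driven output is the name of the list, and whether the clock drove the levels of any of the 10 genes here was not tested. Fkbp5 and Cdkn1a were highest in KO on ND, Tubb2a was low in TG on HFD, and Bhlhe41 was dim.

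**Figure D1:**
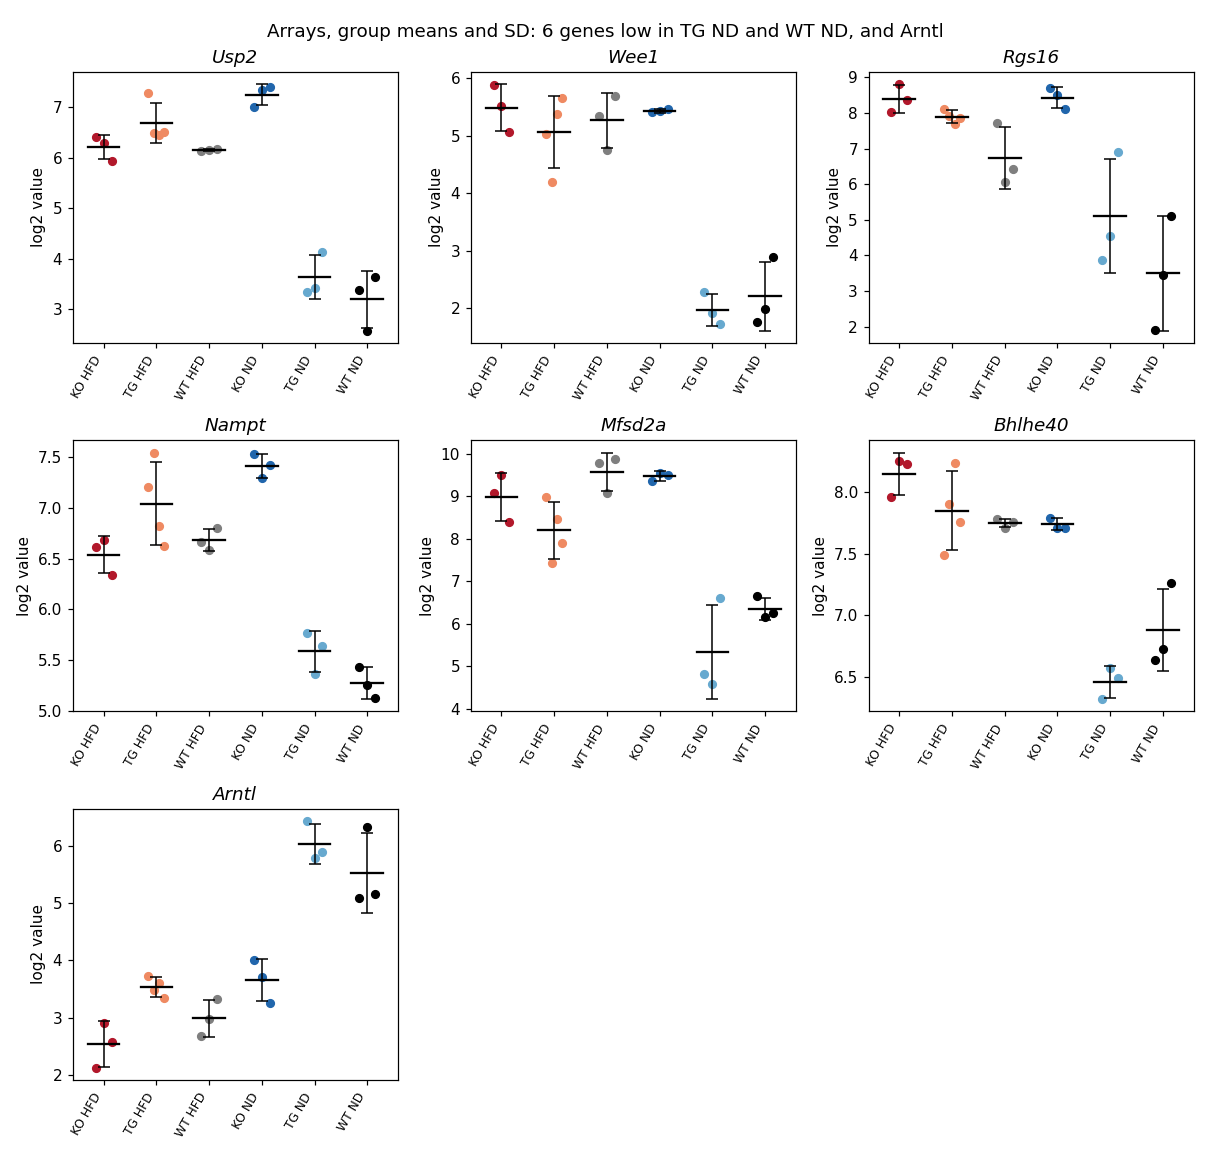
Log2 values of Arntl and of the 6 genes with the opposite order, for KO, TG and WT on HFD and then KO, TG and WT on ND, with each array as a point, the mean as a line and the SD as a bar. The 6 arrays of TG and WT on ND lie above the other 13 for Arntl and below them for Usp2, Wee1, Nampt, Mfsd2a and Bhlhe40, while the ranges of Rgs16 overlap.

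Usp2 encodes a ubiquitin-specific protease whose transcript cycles in many mouse tissues. Its log2 values were 6.41, 6.29 and 5.94 in KO on HFD, 7.28, 6.49, 6.46 and 6.52 in TG on HFD, and 6.14, 6.16 and 6.18 in WT on HFD. On ND they were 7.01, 7.35 and 7.40 in KO, 3.33, 3.42 and 4.13 in TG, and 3.37, 2.57 and 3.64 in WT. Every KO array on ND was above every array of TG and WT on ND, and KO averaged 7.25 ± 0.21 there, against 3.19 ± 0.56 in WT (SD, n = 3 arrays per group). That difference was 4.06 (SE 0.26) on the log2 scale, or 16.7-fold. The diet difference was 3.06 (SE 0.25) in TG and 2.97 (SE 0.26) in WT but -1.04 (SE 0.26) in KO.

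Wee1 encodes the kinase that restrains CDK1 before mitosis, and it is a known clock-controlled gene of regenerating mouse liver. It measured 5.89, 5.52 and 5.07 in KO on HFD, 5.03, 4.20, 5.38 and 5.66 in TG on HFD, and 5.35, 4.76 and 5.70 in WT on HFD. On ND its values were 5.41, 5.43 and 5.47 in KO, 2.28, 1.91 and 1.73 in TG, and 1.76, 1.98 and 2.89 in WT. The 4 groups with low Arntl could not be ordered, since neighbouring groups overlapped, and TG and WT on ND overlapped far below them. KO exceeded WT on ND by 3.22 (SE 0.34). HFD exceeded ND by 3.09 (SE 0.32) in TG and 3.06 (SE 0.34) in WT, against 0.06 (SE 0.34) in KO.

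Of 8 measured genes for control of the step from G2 into mitosis, the process on which Wee1 acts, none rose or fell in any of the 7 comparisons of 2 groups or in the 2 comparisons of diet effects.

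Mfsd2a encodes a sodium-dependent carrier of lysophosphatidylcholine with long-chain fatty acids. It had the highest mean of the 10 genes over all arrays, at 8.00. It measured 9.07, 9.51 and 8.40 in KO on HFD, 8.99, 7.44, 8.48 and 7.90 in TG on HFD, and 9.79, 9.07 and 9.89 in WT on HFD. On ND it was 9.36, 9.56 and 9.51 in KO, 4.81, 4.59 and 6.62 in TG, and 6.66, 6.17 and 6.26 in WT. TG and WT on ND overlapped, and all 6 of their arrays lay below the other 13. The KO-WT difference on ND was 3.12 (SE 0.44). HFD was above ND by 2.86 (SE 0.41) in TG and by 3.22 (SE 0.44) in WT, with -0.49 (SE 0.44) in KO. The call in TG was lost when only the groups compared were fitted. This is the gene whose printed window holds the E-prime box.

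Rgs16 encodes a GTPase-activating protein for G protein alpha subunits that limits signalling through G protein-coupled receptors, and its transcript responds to feeding in mouse liver. It was the most variable of the 6 genes on ND. Its values were 8.02, 8.81 and 8.37 in KO on HFD, 8.11, 7.93, 7.68 and 7.87 in TG on HFD, and 7.71, 6.06 and 6.42 in WT on HFD. On ND they were 8.70, 8.50 and 8.11 in KO, 3.88, 4.54 and 6.91 in TG, and 1.90, 3.46 and 5.12 in WT. The SD was 1.59 in TG and 1.61 in WT on ND, and the highest TG array on ND lay within the range of WT on HFD. KO exceeded WT on ND by 4.94 (SE 0.69). The diet difference was -0.03 (SE 0.69) in KO, 2.79 (SE 0.64) in TG and 3.23 (SE 0.69) in WT. In TG that call was lost on leaving out any of 6 of the 7 arrays, and in WT any of 4 of the 6. Of 13 other members of the RGS family, none rose or fell in any of these comparisons.

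Nampt encodes the rate-limiting enzyme of NAD salvage from nicotinamide. It measured 6.61, 6.68 and 6.34 in KO on HFD, 7.20, 7.54, 6.82 and 6.62 in TG on HFD, and 6.66, 6.58 and 6.80 in WT on HFD. Its ND values were 7.53, 7.29 and 7.42 in KO, 5.77, 5.37 and 5.64 in TG, and 5.44, 5.26 and 5.13 in WT. The low and high arrays did not overlap, and the span was narrower than for Usp2. KO exceeded WT on ND by 2.14 (SE 0.19), or 4.40-fold. HFD minus ND was 1.45 (SE 0.18) in TG, 1.40 (SE 0.19) in WT and -0.87 (SE 0.19) in KO, and the KO call was lost on leaving out any of the 6 arrays.

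Of 14 other genes of NAD synthesis and use, 2 rose in KO relative to WT on ND, where 2.98% of all genes were called. Nmnat2, which makes NAD from nicotinamide mononucleotide, rose by 1.34 (SE 0.19, adjusted p = 4.1e-04 by limma), and Nmrk1, a nicotinamide riboside kinase, rose by 1.59 (SE 0.25, adjusted p = 0.00124 by limma). On HFD relative to ND in TG, Nmrk1 alone of the 14 rose, by 1.42 (SE 0.24, adjusted p = 0.00453 by limma), and none passed in WT or KO. In TG, 0.906% of all genes were called.

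Bhlhe40 encodes DEC1, a repressor that competes for E-boxes and is itself a BMAL1 target. Its values were 7.96, 8.25 and 8.23 in KO on HFD, 7.49, 7.90, 8.24 and 7.76 in TG on HFD, and 7.78, 7.71 and 7.76 in WT on HFD. On ND they were 7.79, 7.71 and 7.71 in KO, 6.32, 6.57 and 6.49 in TG, and 6.64, 6.73 and 7.26 in WT. TG on ND lay below WT on ND without overlap, and the 4 other groups overlapped with their neighbours. The KO-WT difference on ND, 0.86 (SE 0.17), was the smallest of the 6 genes, and its call was lost without WT replicate 1 or 2 on ND (0.74 and 0.79). HFD minus ND was 1.38 (SE 0.16) in TG, 0.87 (SE 0.17) in WT and 0.41 (SE 0.17) in KO, and the WT call was lost on leaving out any of 4 of the 6 arrays.

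Bhlhe41 encodes DEC2, the close relative of DEC1, and did not share its levels. Its mean over all arrays was 1.87, in the dim range below 2 where 56.5% of all genes lay and where background can shrink differences. The values were 2.03, 1.83 and 3.43 in KO on HFD, 1.71, 0.87, 1.75 and 1.61 in TG on HFD, and 2.10, 2.61 and 1.91 in WT on HFD. On ND they were 1.79, 1.66 and 1.72 in KO, 1.40, 1.08 and 1.39 in TG, and 2.16, 1.46 and 3.10 in WT. No comparison took it past the threshold, and its lowest difference was -0.95 (SE 0.38) for TG against WT on ND. Its window holds an E-box, as does that of Fkbp5.

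**Figure D2:**
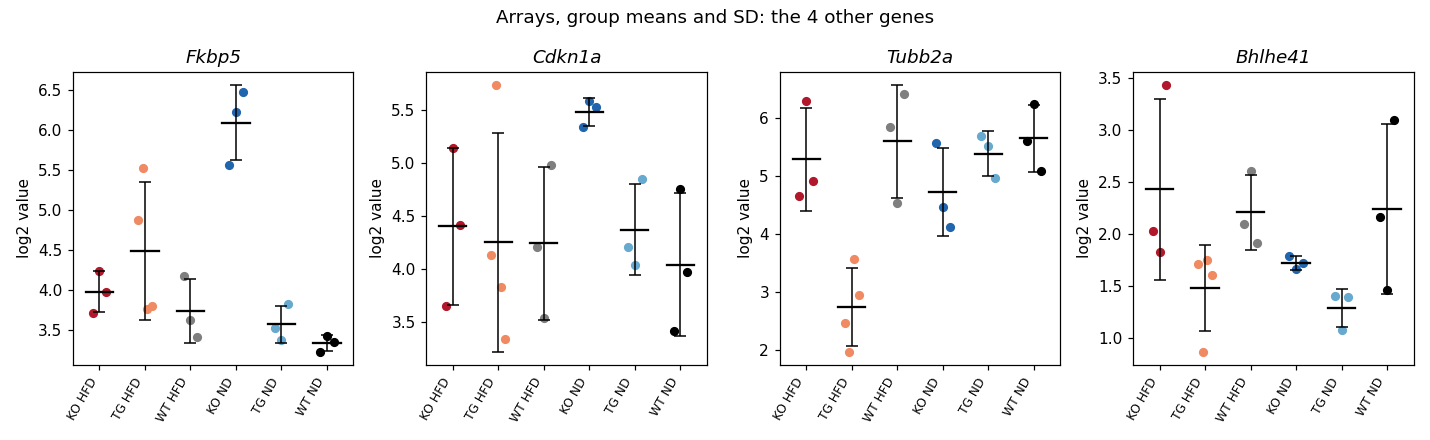
Log2 values of Fkbp5, Cdkn1a, Tubb2a and Bhlhe41 in the same 6 groups, HFD before ND, with each array as a point, the mean as a line and the SD as a bar. KO on ND is highest on average for Fkbp5 and Cdkn1a, and TG on HFD is below every other group for Tubb2a.

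Fkbp5 encodes a co-chaperone of the glucocorticoid receptor and is a classic target of that receptor. It measured 3.71, 4.24 and 3.98 in KO on HFD, 4.88, 5.53, 3.76 and 3.80 in TG on HFD, and 4.18, 3.62 and 3.41 in WT on HFD. On ND it was 5.56, 6.23 and 6.48 in KO, 3.52, 3.37 and 3.82 in TG, and 3.23, 3.43 and 3.35 in WT. All 3 KO arrays on ND were above all 16 others, and TG replicates 1 and 2 on HFD, at 4.88 and 5.53, were above every array of the other 4 groups. KO exceeded WT on ND by 2.75 (SE 0.36). HFD minus ND was -2.11 (SE 0.36) in KO, a call lost on leaving out any of 3 of the 6 arrays, with 0.92 (SE 0.34) in TG and 0.40 (SE 0.36) in WT.

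Cdkn1a encodes p21, an inhibitor of cyclin-dependent kinases that is a target of p53 and also cycles in mouse liver. It measured 3.65, 5.14 and 4.41 in KO on HFD, 4.13, 5.73, 3.83 and 3.34 in TG on HFD, and 4.21, 3.54 and 4.98 in WT on HFD. Its ND values were 5.34, 5.58 and 5.52 in KO, 4.21, 4.04 and 4.85 in TG, and 3.41, 4.75 and 3.97 in WT. KO on ND was the highest group and the tightest, but 1 TG array on HFD was higher still. The KO-WT difference on ND was 1.44 (SE 0.51) and did not pass the threshold. None of 9 other p53 targets rose or fell in that comparison.

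Of 12 glucocorticoid receptor targets besides Fkbp5, 5 rose and 1 fell in KO relative to WT on ND, where 2.98% of all genes were called. Per1 rose by 2.55 (SE 0.38, adjusted p = 8.0e-04 by limma) and Pck1, the first committed enzyme of gluconeogenesis, by 0.91 (SE 0.17, adjusted p = 0.00598 by limma). The gene that fell was Nr1d1, at -2.30 (SE 0.40, adjusted p = 0.00278 by limma). Per1 and Nr1d1 are also clock genes. On HFD relative to ND in KO, 2 of the 12 fell, where 0.803% of all genes were called. These were Pck1 at -1.08 (SE 0.17) and Dusp1 at -1.17 (SE 0.25).

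Of 11 fasting genes, only Pck1 rose in KO relative to WT on ND, where 2.98% of all genes were called. Pck1 is also 1 of the 12 glucocorticoid receptor targets above. On HFD relative to ND in KO, 3 of the 11 fell, Pck1 among them, with 0.803% of all genes called. On HFD relative to ND in TG, Cpt1a alone of the 11 rose, by 0.63 (SE 0.13), with 0.906% of all genes called. In WT, Cpt1a rose by 0.63 (SE 0.14) and Fgf21 by 1.94 (SE 0.44), with 1.32% of all genes called. Of 9 genes induced by feeding, only Thrsp passed the threshold in KO relative to WT on ND, at 3.03 (SE 0.30, adjusted p = 1.0e-05 by limma). The median there was 0.95 over the 9 feeding genes and 0.47 over the 11 fasting genes, with -0.002 over all genes. Thrsp, a regulator of lipogenesis, also rose on HFD relative to ND in TG by 2.26 (SE 0.28) and in WT by 2.56 (SE 0.30). No label gives the feeding state, and its part in the members' levels was not tested.

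Tubb2a encodes a beta-tubulin, a subunit of microtubules. It measured 4.65, 6.30 and 4.92 in KO on HFD, 2.47, 1.97, 3.57 and 2.94 in TG on HFD, and 5.84, 4.53 and 6.42 in WT on HFD. On ND it was 5.57, 4.47 and 4.12 in KO, 5.69, 5.52 and 4.96 in TG, and 5.60, 6.25 and 5.09 in WT. All 4 TG arrays on HFD were below all 15 others, and the 5 other groups overlapped. TG minus WT on HFD was -2.86 (SE 0.48), and HFD minus ND in TG was -2.65 (SE 0.48). Near-identical beta-tubulin transcripts can share probes, so the signal may not be of Tubb2a alone. None of 12 other tubulins passed the threshold in TG against WT on HFD. Without a call, Tubb6 was -0.93 (SE 0.29) and Tuba1c -0.83 (SE 0.24) there. The median of the 12 was -0.15, with -0.004 over all genes. Tubb5 alone of the 12 was called on HFD relative to ND in TG, where it fell by 0.63 (SE 0.14). In that comparison Tubb6 was -0.88 (SE 0.29), and 0.906% of all genes were called.

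Markers of another cell type moved with the TG groups. All 8 markers of Kupffer cells and macrophages rose in TG relative to WT on both diets, where 1.3% of all genes were called on ND and 3.57% on HFD. Their mean log2 level per array was 5.88 to 6.40 in TG on HFD and 4.33 to 4.82 in WT on HFD, and on ND it was 6.07 to 6.53 in TG, against 4.45 to 4.58 in WT. Tubb2a was low in TG on HFD and not in TG on ND, while these markers were high in both, and their part in the Tubb2a values was not tested. Among markers of other cell types, 1 of 6 for stellate cells rose in TG relative to WT on each diet. On HFD, 1 of 5 for endothelial cells and 1 of 4 for B and T cells rose as well.

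The counts of members past the threshold, an adjusted p under 0.05 over all genes, follow from values that guided the choice of the list, so nothing is read from them. In KO against WT on ND, 7 of the 10 passed, all higher in KO, where 2.98% of all genes were called. On HFD, KO against WT had 0 of 10, with 0.338% of all genes called and 2 members at an unadjusted p under 0.05 by limma. TG against WT had 0 of 10 on ND, with 1.3% of genes called and 4 members at an unadjusted p under 0.05 by limma. On HFD it had 1, Tubb2a, with 3.57% called.

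For diet, 2 members were lower on HFD than on ND in KO, with 0.803% of genes called. In TG, 6 were higher and 1 lower on HFD, with 0.906% called, and in WT 6 were higher, with 1.32% called. The diet effect in KO was called lower than that in WT for 5 members, Usp2, Mfsd2a, Wee1, Fkbp5 and Nampt, where 0.825% of genes were called. Without a call, the diet effect in KO less that in WT was -3.27 (SE 0.97) for Rgs16 and -1.28 (SE 0.72) for Cdkn1a. It was -0.46 (SE 0.24) for Bhlhe40, 0.62 (SE 0.73) for Tubb2a and 0.74 (SE 0.54) for Bhlhe41. The diet effects in TG and in WT differed for 0 members, with 0.221% called and 2 members at an unadjusted p under 0.05 by limma. The comparisons of KO with WT on ND, of TG with WT on ND, and of HFD with ND in WT share the 3 WT arrays on ND, while the diet comparisons in TG and in WT share none. With Arntl as a covariate, 2 members passed in KO against WT on ND, and none in any of the 3 diet comparisons. The differences mostly kept their size in that fit while their SE grew. KO minus WT on ND was 3.06 (SE 0.65) for Wee1 and 3.07 (SE 0.85) for Mfsd2a, and HFD minus ND in WT was 2.84 (SE 0.82) for Wee1, but for Usp2 it was 1.85 (SE 0.57) against 2.97 without the covariate.

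**Figure D3:**
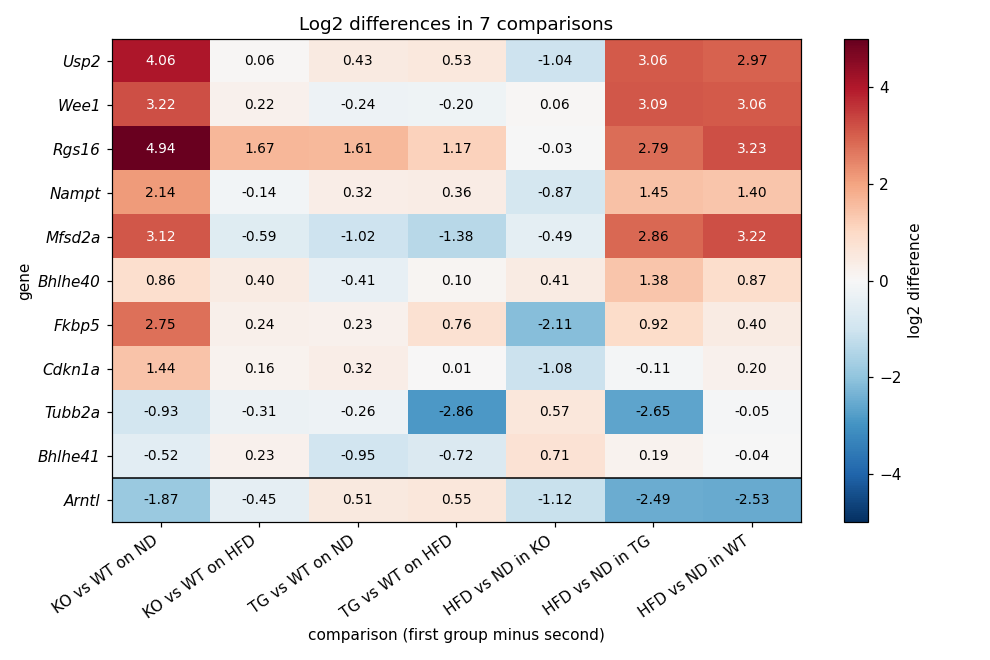
Log2 differences of the 10 genes and of Arntl in the 7 comparisons of 2 groups, first group minus second, as a grid of genes (rows) by comparisons (columns) with the value in each cell and red for higher in the first group. Usp2 stands at 4.06 for KO minus WT on ND and 0.06 on HFD, and at -1.04, 3.06 and 2.97 for HFD minus ND in KO, TG and WT.

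KO minus WT on HFD was 1.67 (SE 0.69) for Rgs16 and -0.59 to 0.40 for the 9 others. TG minus WT ran from -1.02 (Mfsd2a, SE 0.44) to 1.61 (Rgs16, SE 0.69) on ND, and on HFD, Tubb2a aside, from -1.38 (Mfsd2a, SE 0.41) to 1.17 (Rgs16, SE 0.64). Mfsd2a was thus lower in TG and Rgs16 higher in TG on both diets, with no call for either. The diet effect in TG less that in WT was -2.60 (SE 0.71) for Tubb2a, without a call, and -0.44 to 0.52 for the 9 others.

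The median over the 10 genes was 2.45 for KO minus WT on ND, with -0.002 over all genes. For HFD minus ND it was -0.26 in KO, 1.42 in TG and 1.14 in WT, with 0.005, 0.003 and 0.004 over all genes. For Arntl itself the difference was -1.87 (SE 0.29) for KO minus WT on ND, and for HFD minus ND -2.49 (SE 0.27) in TG and -2.53 (SE 0.29) in WT. In KO, Arntl was also lower on HFD, at -1.12 (SE 0.29), without a call. There Usp2, Nampt, Mfsd2a and Rgs16 were lower on HFD as well (-1.04, -0.87, -0.49 and -0.03), while Wee1 and Bhlhe40 were higher (0.06 and 0.41).

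Other parts of the clock differed in the same comparisons. This list and the other gene lists were chosen with earlier results of these data known, so their counts are a description. Of 16 core clock genes measured besides Arntl, 6 rose and 3 fell in KO relative to WT on ND, where 2.98% of all genes were called. Ciart, a repressor of CLOCK and BMAL1, rose by 3.40 (SE 0.34), Per3 by 1.65 (SE 0.22), and Clock fell by 0.96 (SE 0.13), with adjusted p of 1.0e-05, 3.5e-04 and 3.0e-04 by limma. On HFD relative to ND, 8 rose and 3 fell in TG, 5 rose and 1 fell in WT, and none of the 16 passed in KO. The share of all genes called was 0.906% in TG, 1.32% in WT and 0.803% in KO. Dbp, a D-box activator, rose by 2.84 (SE 0.24) in TG and 1.70 (SE 0.26) in WT. Between KO and WT on HFD, and between TG and WT on either diet, none of the 16 passed.

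For the clock gene Nr1d1, KO on ND lay below KO and WT on HFD but overlapped TG on HFD. Nr1d1, the repressor of Arntl, averaged 6.30 in KO, 5.26 in TG and 6.47 in WT on HFD. On ND its means were 4.69 for KO, 6.70 for TG and 6.99 for WT. Its mean was thus lowest in KO on ND and highest in WT on ND, an order that none of the 6 opposite members had. TG replicates 1 and 2 on HFD, at 4.48 each, were below the KO arrays on ND, at 4.51 to 4.98. HFD minus ND in KO was 1.61 (SE 0.40) for Nr1d1, without a call.

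Of 21 other genes known to cycle in liver, 8 rose and 3 fell in KO relative to WT on ND, where 2.98% of all genes were called. Coq10b, which serves coenzyme Q function, rose by 2.07 (SE 0.19), Lpin1, a phosphatidate phosphatase, by 4.35 (SE 0.48), and Dtx4 fell by 1.59 (SE 0.18). On HFD relative to ND, 5 rose and 4 fell in TG, 3 rose and 2 fell in WT, and 3 fell in KO. Of all genes, 0.906% were called in TG, 1.32% in WT and 0.803% in KO.

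Whether the members follow Arntl from array to array within a group was tested in a separate limma model of the 6 group means and Arntl, a measure that the choice by group did not use. None of the 10 passed after adjustment over 22179 genes, of which 0% were called. At an unadjusted p under 0.05 there were 2 members, and 999 genes in all (4.5%). Usp2 had a slope of -0.44 (SE 0.20) and Tubb2a of 1.07 (SE 0.37) in log2 units per log2 unit of Arntl, with an adjusted p of 0.998 each. The slope was negative for 7 of the 10 and for 54.1% of all genes. The SD of Arntl within a group was only 0.17 to 0.70, and none of the 16 core clock genes passed either.

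**Figure D4:**
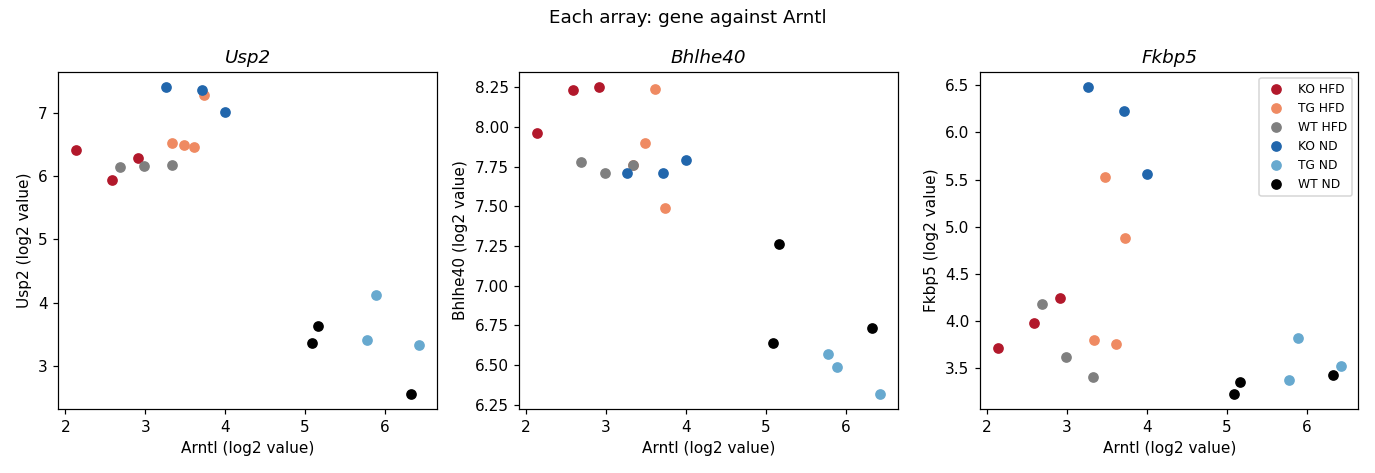
Log2 values of Usp2, Bhlhe40 and Fkbp5 (y axes) against that of Arntl (x axes), with each of the 19 arrays as a point coloured by group. The arrays fall in 2 clusters, with Arntl at 2.13 to 4.00 and at 5.09 to 6.43, and Fkbp5 is above 5 in the 3 KO arrays on ND and 1 TG array on HFD.

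**Figure D5:**
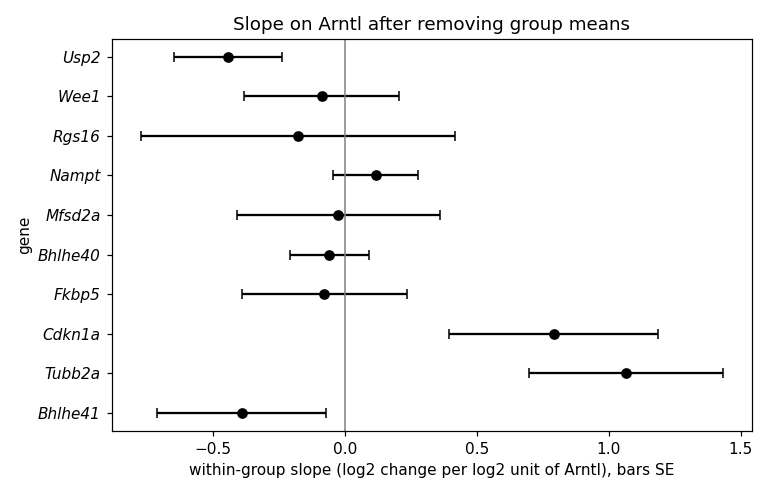
Slope of each of the 10 genes on Arntl within groups, in log2 units per log2 unit of Arntl, with bars for the SE. Usp2 is at -0.44, Cdkn1a at 0.79 and Tubb2a at 1.07, and the slopes of the 7 others lie between -0.39 and 0.12.

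The arrays fall in 2 clusters by Arntl, so no pooled correlation with it is given for the members. Among the 15 pairs of the 6 opposite genes, Pearson's r over the 19 arrays was 0.719 to 0.945. The 6 were grouped by their shared levels over these arrays, so a high r over all arrays follows from the grouping. Taken within groups, r was -0.448 to 0.669, and above 0 in 10 pairs. Cdkn1a and Fkbp5, both highest in KO on ND, had r of 0.726 over the arrays and 0.658 within groups. The points of these correlations share arrays and groups.

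For each member, the gene outside the list with the highest r over the 19 arrays was found among genes averaging at least 2 on the log2 scale. It was Coq10b for both Usp2 (0.971, and 0.676 within groups) and Nampt (0.963, and 0.622 within groups). Clock genes were closest to 2 members, Per3 to Wee1 (0.937, and 0.316 within groups) and Dbp to Bhlhe40 (0.947, and 0.476 within groups). Slc16a12 was closest to Rgs16 (0.892, and 0.304 within groups), and Sec23a to Mfsd2a (0.927, and 0.411 within groups).

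Shld2 was closest to both Fkbp5 (0.925, and 0.708 within groups) and Cdkn1a (0.818, and 0.842 within groups). Tfpi2 was closest to Tubb2a (0.898, and 0.642 within groups), and Nrde2 to the dim Bhlhe41 (0.842, and 0.728 within groups).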

How the data were processed

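RNA from whole liver was labelled from 400 ng of total RNA and hybridised to Affymetrix arrays, per the labels' protocols. The authors deposited log2 values per probe set; the submitters' processing notes name limma, affy and RMA, and the log base was inferred from RMA and the range of values. Genome build and versions are not given in the sources used here. Of 41345 probe sets, 23521 had 1 gene symbol, 1814 several and 16010 none, and 23328 matched RefSeq by Entrez identifier.

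All 19 arrays entered 1 model of 6 group means in limma 3.58.1 (R 4.3.3; 13 residual and 4.76 prior degrees of freedom), with two-sided p-values adjusted by Benjamini-Hochberg over 22180 genes and no filter. The script was tested on simulated data. The members and all gene lists were chosen with earlier results of these data known. Named genes were the members, Arntl, Kcp, up to 3 genes of smallest p in each list, and each member's most similar gene. Alternatives were the prior, a filter on dim genes, probe set averaging, renewed quantile normalization, the arrays fitted, Arntl as a covariate, and other phase references.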

Additional observations from a re-analysis of the deposited data

Results flagged for a closer look

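In TG on HFD, 1 array stood apart from the other 3 for each of 2 genes. Usp2 reached 7.28 in replicate 1, against 6.46 to 6.52 in the others, and Bhlhe41 was 0.87 in replicate 2, against 1.61 to 1.75 in the others. Dixon's criterion, which set them apart, is built to flag about 1 of 20 groups by chance. It was applied to each member and Arntl in this group alone, the only one of 4 arrays.

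The diet effect in KO and that in WT were set apart for 5 members by the interaction term in limma. HFD minus ND in KO less HFD minus ND in WT was -4.01 for Usp2, -3.71 for Mfsd2a, -3.00 for Wee1, -2.51 for Fkbp5 and -2.28 for Nampt. These genes were chosen with the group differences known, so the values are a description. For Fkbp5 the call was lost on leaving out any of 8 of the 12 arrays, with values of -2.78 to -2.29. Rgs16, at -3.27 (SE 0.97), had no call.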

How the results depend on the processing

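No paired analysis was made, because no number in the titles is shared between samples and the replicate numbers only follow the order of the samples. With Arntl as a covariate, the count of members past the threshold was 2 in place of 7 for KO against WT on ND, 0 in place of 2 for HFD against ND in KO, 0 in place of 7 in TG, 0 in place of 6 in WT, and 2 in place of 5 for the diet effect in KO less that in WT. Of the 28 differences called without the covariate, 22 lost their call and kept their direction, at 0.62 to 1.21 times their size and with SE 1.35 to 2.54 times as large, and 20 of the 22 were at least 0.8 times as large. The Tubb2a diet difference in TG turned to 0.004. Since Arntl and the groups move together, that fit rests on the small spread of Arntl within groups. Testing only genes with a mean of at least 2 gave 2 members for TG against WT on HFD in place of 1 and 3 for HFD against ND in KO in place of 2, and fitting only the groups compared gave 1 for HFD against ND in KO in place of 2. On leaving out each array in turn, the counts were 6 to 7 for KO against WT on ND, 0 on HFD, 0 to 1 for TG against WT on ND, 1 to 2 on HFD, 0 to 1 for HFD against ND in KO, 5 to 7 in TG, 4 to 6 in WT, 4 to 5 for the diet effect in KO less that in WT, and 0 for that in TG and for the slope on Arntl. The 1 member of TG against WT on ND appeared without TG replicate 3. The Tubb2a diet call in TG was lost without TG replicate 1 or 2 on ND (-2.50 and -2.59). Without both WT replicate 1 and TG replicate 2 on HFD, Rgs16 lost its diet call in TG and WT (2.78 and 2.74) and Bhlhe40 in WT (0.86). Fitting only the groups compared also ended the diet calls of Rgs16 in TG and WT, Mfsd2a in TG, Bhlhe40 in WT and Nampt in KO, and a prior with a trend ended those of Rgs16 in TG and WT, all at the same differences. Averaging probe sets and renewed quantile normalization changed no call, and no other phase reference or left-out group took a member past the slope threshold. The number of arrays limits the precision, and signal near background limits Bhlhe41.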
